A study of Mus musculus with 18 samples.

Results

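The sites described here are DNA variants that were listed in at least 2 of 17 mouse leukemias and carried no mark of a known variant in the DB field of the deposited call table. A site is a chromosome, a position, a reference allele and an alternative allele, on mm10. The rule found 104 sites with 621 calls, out of 2101 sites with 2653 calls in all. The leukemias arose in NP23-NHD13 double transgenic mice of the C57Bl6-NIH strain, labelled as thymic acute myeloid leukemia (AML), and each came from a different mouse. Genomic DNA of the exome came from the thymus of 11 mice and from the bone marrow of 6. A tail of 1 wild-type C57Bl6-NIH mouse was the normal sample for every leukemia, and no leukemia had DNA of its own mouse beside it. The mouse names fall into the NN series, whose names end in NN (M53 to M61, 5 thymus and 4 bone marrow), and the remaining 8 leukemias, called the plain series here (M18 to M24 and M31, 6 thymus and 2 bone marrow). Every leukemia carried both transgenes, and the promoters, ages and litters were not given in the sources used here.

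NP23 and NHD13 are fusions of NUP98, a protein of the nuclear pore, with PHF23, a PHD finger protein that binds methylated histone H3, and with HOXD13, a homeobox transcription factor. In a diploid genome, an inherited variant is read in about equal numbers with the reference allele where a mouse is heterozygous and in nearly every read where it is homozygous. A variant acquired by part of the cells of a sample is read in fewer, and an unmatched normal does not separate inherited from acquired variants. The allele fraction is the caller's estimate of the share of DNA molecules with the alternative allele.

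Sites were divided by the median of their allele fraction over the leukemias that listed them. The fraction was near 0.5 (0.35 to 0.65) at 42 sites and below 0.10 at 39 sites. Another 21 sites lay between 0.10 and 0.35, and 1 site each lay between 0.65 and 0.85 and at 0.85 or more. The 44 sites at 0.35 or more are called upper sites below. The 621 calls rested on 8 to 4443 reads, the median being 76. The wild-type tail was covered at a median of 41.5 reads over the sites. It held an alternative read at 13 of the 104 sites, 1 of them among the 44 upper sites. The calls were made against this tail, so its alternative reads bear on which sites were listed. Its median depth was 34 reads over the upper sites and 74 over the sites below 0.10. The site nearest to the rule that was left out was a Phldb1 variant (chromosome 9, 44687687), listed in 9 leukemias and marked in 8 of them. Its fraction had a median of 0.545.

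**Figure D1:**
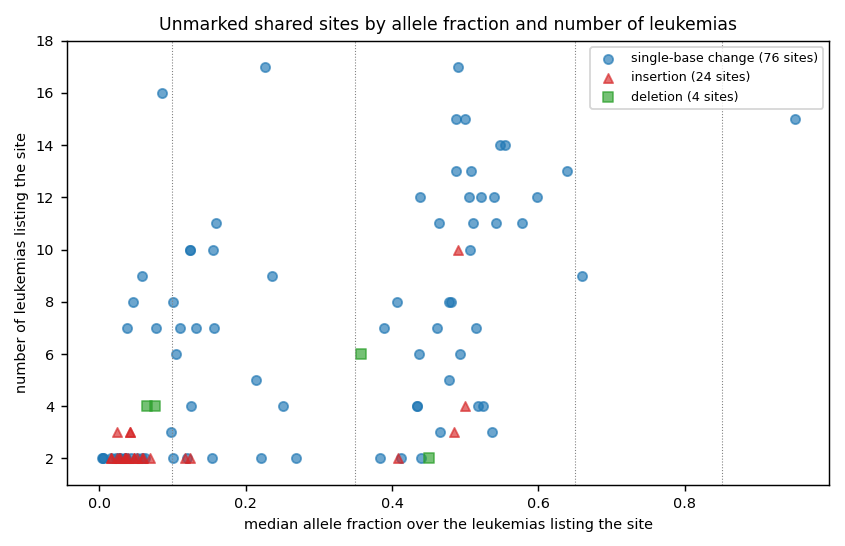
Each point is 1 of the 104 sites, with the median allele fraction on the x axis and the number of leukemias listing the site on the y axis. Dotted lines mark fractions of 0.10, 0.35, 0.65 and 0.85, and the sites listed in many leukemias lie mostly around 0.5 while most insertions lie at the lower left.

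Insertions and deletions made up 28 of the 104 sites, and their bases are shown because they are what tells these alleles apart. The lower-case first letter is the reference base at the listed position and the capitals are the inserted or deleted bases, on the forward strand of mm10. Of the 6 upper insertions and deletions, the 4 with at least 10 bases follow.
Thap1 insertion, intron (chromosome 8, 26158529): aGCAGTGGGAGGCAG
Pde4d deletion, intron (chromosome 13, 109925316): tGTTCTGCTGG
Pdpk1 deletion, intron (chromosome 17, 24093487): aGTGGTGTGTGGTG
Nsd1 insertion, essential splice site (chromosome 13, 55307042): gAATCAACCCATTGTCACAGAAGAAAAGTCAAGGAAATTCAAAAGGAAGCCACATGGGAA
A shorter Nsd1 insertion stood at the same position and is shown for comparison with the longer allele.
Nsd1 short insertion: gAATCAACCCATT
Its 12 inserted bases were the first 12 of the 59 bases of the longer one.
The low sites held 18 insertions of 2 to 16 bases, of which 5 with 11 or more bases are shown for their different sequences.
Samd5 insertion, A116fs (chromosome 10, 9674618): cTGGTGAGCTACCCTAA
Pira6 insertion, E509fs (chromosome 7, 4282083): gGAGCTACTCACAT
Ncaph insertion, A150fs (chromosome 2, 127125681): aCCAAGATCTAT
Ptpn6 insertion, intron (chromosome 6, 124728698): gTGGACGCTATA
Lingo1 insertion, S518fs (chromosome 9, 56619771): gGGAGAGGCCAA
The Samd5 and Pira6 insertions had the 7 bases GAGCTAC in common, and the pairs of low insertions in other genes shared 4 bases in a row at most.

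Calls at the upper sites fell into 2 modes. Of 369 calls, 257 (69.6%) lay near 0.5 and 61 (16.5%) lay at 0.85 or more, here called near 1. Only 14 calls lay between 0.65 and 0.85, 31 lay between 0.10 and 0.35, and 6 below 0.10. A call near 1 occurred at 22 of the 44 sites, and each of these 22 also had a call near 0.5 in another leukemia. All 44 sites were autosomal. Upper sites were taken by their median, so these shares describe them only. Over all 621 shared calls, with no limit on the fraction, 267 (43%) lay near 0.5, 61 (9.82%) near 1 and 139 (22.4%) below 0.10. Of the 1347 unmarked private calls, those whose site was listed in 1 leukemia, 89 (6.61%) lay near 0.5, none near 1 and 1024 (76%) below 0.10.

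Within each leukemia the shared calls had higher fractions than the private ones. The median fraction averaged 0.365 ± 0.111 (SD, n = 17) for shared calls and 0.0709 ± 0.0615 (SD, n = 17) for private calls. The shared median was higher in 17 of 17 leukemias, by 0.294 on average (sign-flip permutation test with 100000 resamples, two-sided, p = 2e-05). The leukemias list many of the same shared sites, so these 17 differences are not fully independent, and the test treats them as if they were. A shared site had to be listed at least 2 times, which may itself favour higher fractions. The part of this definition in the difference was not tested. The difference was smallest in M31, where the medians were 0.273 and 0.265.

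Perp, a membrane protein of desmosomes and a target of p53, carried an intronic variant (chromosome 10, 18853702) in all 17 leukemias. Its fraction was 1 in M18, M53 and M56, 0.987 in M60 and 0.844 in M58. In M31 it was 0.208, and in the other 11 it ran from 0.351 in M24 to 0.526 in M23. In M18, 130 of 130 reads carried the allele (100%, exact 95% Clopper-Pearson interval from 97.2% to 100%), and in M19 60 of 134 reads did (44.8%, interval from 36.2% to 53.6%). Such intervals cover counting error only. The wild-type tail had 71 reads and no alternative read there.

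The missense variant Q434R of 4931431F19Rik (chromosome 7, 104128315) was the only site with a median near 1, at 0.95. All 9 NN leukemias lay between 0.931 in M57 and 1 in M59 and M61. The plain leukemias that listed it lay at 0.492 in M18, 0.564 in M20, 0.42 in M21, 0.479 in M22, 0.471 in M23 and 0.76 in M31. The mean was 0.98 ± 0.0236 (SD, n = 9) in the NN series and 0.531 ± 0.121 (SD, n = 6) in the plain series, and the groups did not overlap. This was 1 of 33 sites (3.03%) called when fractions were compared between the series at every site with at least 3 carriers in each (exact permutation test, p = 0.0002, Benjamini-Hochberg adjusted p = 0.00659). Between tissues, 0 of 43 sites (0%) were called by the same exact permutation test, and 0 had an unadjusted p under 0.05. M19 and M24 did not list Q434R.

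Several other sites in 10 or more leukemias showed both modes. The missense variant E506K of Cyp2u1, a cytochrome P450 of fatty acid metabolism (chromosome 3, 131291206), was near 1 in 5 of 14 leukemias: M18, M54, M56, M59 and M60. Its other fractions ran from 0.381 in M58 to 0.708 in M31. The synonymous variant V935V of Ptch1, the Hedgehog receptor (chromosome 13, 63524985), was near 1 in M18, M20, M57 and M61, and the lowest of its 12 fractions was 0.208 in M58. An intronic variant of Prkd1, a serine/threonine kinase (chromosome 12, 50391296), was near 1 in 6 of 13 leukemias, 5 of them in the NN series. An untranslated-region variant of Cenpo, a centromere protein (chromosome 12, 4214260), was near 1 in 4 of 12 leukemias. The intergenic site between 2410141K09Rik and Uqcrb (chromosome 13, 66673223) was near 1 in 4 of 12 leukemias, at 1 in M55, 0.982 in M59, 0.964 in M60 and 0.854 in M58.

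The remaining widely listed upper sites had 3 or fewer calls near 1. An intronic Daglb variant (chromosome 5, 143494680), in a lipase that makes the endocannabinoid 2-arachidonoylglycerol, was near 1 in 3 of 14 leukemias, M53, M54 and M57. An intronic variant of Lss, the lanosterol synthase of cholesterol synthesis (chromosome 10, 76549781), was near 1 in M20 and M54 of 13. A splice region variant of P2rx1, an ATP-gated ion channel (chromosome 11, 73013460), was near 1 in M57 and M61 of 13. The missense variant A170S of Zcchc4, a methyltransferase of ribosomal RNA (chromosome 5, 52796158), was near 1 in M20 and M53 of 15. The missense variant P308S of Pram1, an adaptor protein of myeloid cells (chromosome 17, 33641382), was near 1 in M57 and M61 of 11. The missense variant D78E of Ddx42, an RNA helicase (chromosome 11, 106224796), was near 1 in M61 alone of 15. Neither G218S of Mina, a ribosomal oxygenase (chromosome 16, 59480390, 12 leukemias, median 0.506), nor A461T of Tbc1d2b, a regulator of Rab GTPases (chromosome 9, 90226116, 11 leukemias, median 0.542), was near 1 in any.

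**Figure D2:**
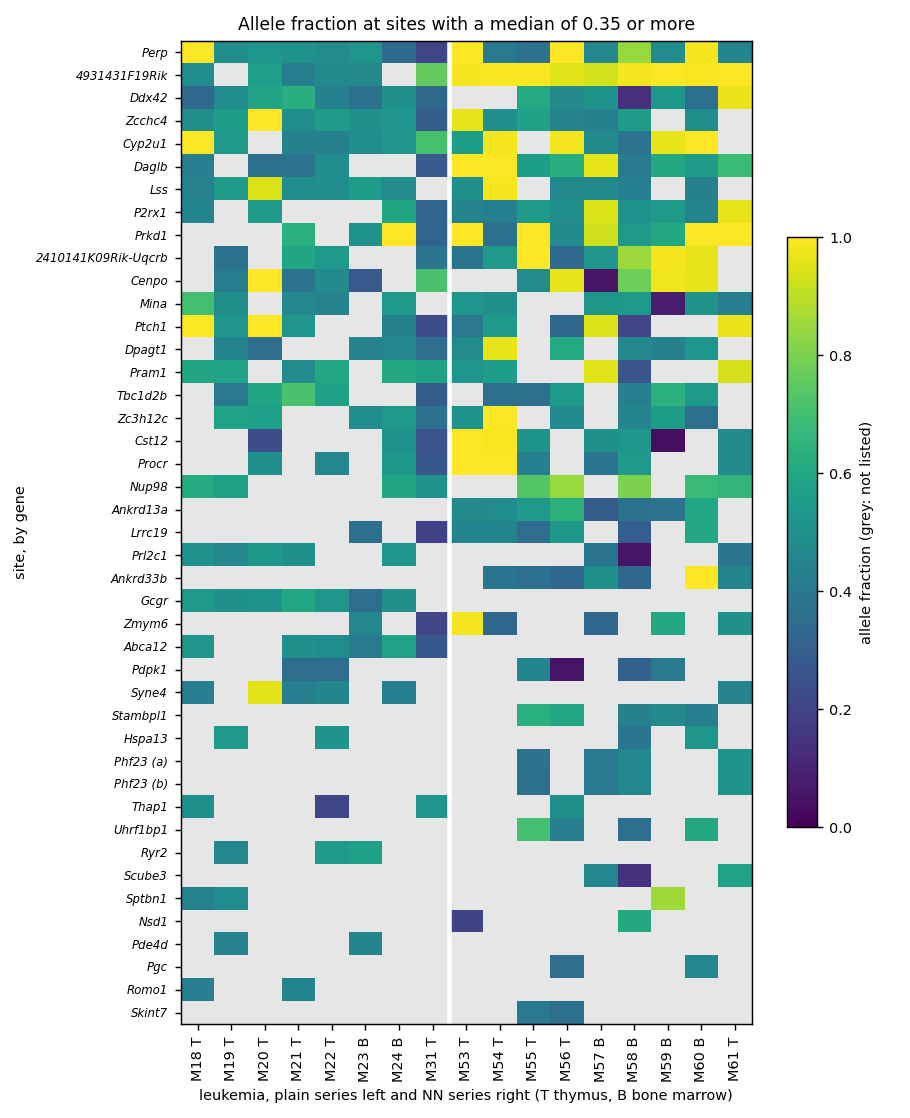
Rows are 43 of the 44 upper sites by gene, columns are the 17 leukemias with the plain series left of the white line, and colour is the allele fraction on a linear scale, with grey where a site was not listed. Yellow cells near 1 stand in 21 of these rows, and 4931431F19Rik is yellow in all 9 NN leukemias and in no plain leukemia.

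Calls near 1 were unevenly spread over the leukemias. M19, M21, M22, M23 and M31 had none, M24 had 2, M18 had 4 and M20 had 6. In the NN series every leukemia had some, from 2 in M58 to 8 in M53 and in M54. Calls near 1 made up 24.8% ± 11.5 (SD, n = 9) of the upper calls in the NN series. In the plain series they made up 7.92% ± 12.6 (SD, n = 8), and the groups overlapped. The difference was 16.9 percentage points (exact two-sided permutation test, p = 0.0137), and it did not pass after Benjamini-Hochberg adjustment over the 24 comparisons of values per leukemia (adjusted p = 0.263). By tissue they made up 17.4% ± 16.2 (SD, n = 11) in thymus. In bone marrow they made up 15.9% ± 12.1 (SD, n = 6), and the exact permutation p was 0.843. Within the series, thymus minus bone marrow was 6.31 points in NN (exact p = 0.452) and 3.89 points in plain (exact p = 0.821).

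Sites in the mouse genes whose human counterparts form the fusions were described next. The synonymous variant G450G of Nup98 (chromosome 7, 102169472), the mouse gene of the nucleoporin in both fusions, was listed in 9 leukemias. Its fraction was 0.617 in M18, 0.57 in M19, 0.588 in M24 and 0.513 in M31. In the NN leukemias it was 0.732 in M55, 0.844 in M56, 0.802 in M58, 0.673 in M60 and 0.66 in M61. All 5 NN values were above all 4 plain values, but the difference did not pass adjustment over the 33 sites (exact permutation test, p = 0.0159, adjusted p = 0.0982). It was the only site with a median between 0.65 and 0.85.

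Phf23, the mouse gene of the NP23 partner, held 3 synonymous sites in a span of 0.591 kb. The neighbouring changes T126T and L127L (chromosome 11, 69998519 and 69998520) were listed together in M55, M57, M58 and M61 only, all of the NN series. The fractions of T126T were 0.373, 0.401, 0.466 and 0.515 in that order, and those of L127L differed by 0.002 at most. D323D (chromosome 11, 69999110) was listed in 7 leukemias of both series, with a fraction of 0.447 in M56 and otherwise 0.068 to 0.258. The lists of leukemia genes held 101 genes, of which 3 had a member site. These were Nup98, Phf23 and Nsd1.

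Nsd1, a methyltransferase of lysine 36 of histone H3, carried the 2 insertions shown above at the same splice site. The insertion of 59 bases was listed in M53 (21 of 122 reads, fraction 0.207) and M58 (77 of 144 reads, fraction 0.608). The insertion of 12 bases was listed in M54 (12 of 98 reads, fraction 0.174) and M55 (5 of 95 reads, fraction 0.06). The carriers were disjoint, all 4 belonged to the NN series, and the tail had 18 reads and no alternative read.

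Of the 104 sites, 49 altered a protein (47.1%), beside 690 of 1347 private unmarked sites (51.2%). With each call taken alone, a missense change was the consequence at 29 sites, a frameshift at 12, an essential splice site at 3 and a stop codon at 3. Synonymous sites numbered 15, intronic sites 20, and sites that were intergenic, flanking or noncoding 17. Among single-base changes, C-to-T, counted on either strand, made up 36 of 76 shared sites (47.4%), 25 of 38 upper sites (65.8%) and 638 of 1059 private sites (60.2%).

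The upper sites held 22 protein-altering changes, 19 of them missense. A356V of Dpagt1, in 11 leukemias, is described with its neighbour below. Q2* of Prl2c1, a prolactin family hormone (chromosome 13, 27849405), was the only upper stop codon. It was listed in 8 leukemias at 0.504 in M18, 0.462 in M19, 0.535 in M20, 0.5 in M21, 0.522 in M24, 0.39 in M57, 0.053 in M58 and 0.393 in M61. M58 stood far below the other 7. M179I of Zmym6 (chromosome 4, 127093065) was listed in 7 leukemias, at 0.981 in M53 and otherwise at 0.214 to 0.603. R329L of Syne4, a nuclear envelope protein (chromosome 7, 30318728), was listed in 6 leukemias, at 0.959 in M20 and otherwise at 0.428 to 0.458. A189T of Hspa13, a member of the HSP70 chaperone family (chromosome 16, 75761111), and G928S of Uhrf1bp1 (chromosome 17, 27887283) were listed in 4 leukemias each, with medians of 0.524 and 0.518. R739Q of Ryr2, the cardiac calcium release channel (chromosome 13, 11794722), and R458Q of Scube3 (chromosome 17, 28164358) were listed in 3 each, with medians of 0.537 and 0.466. M71T of Romo1, a mitochondrial membrane protein (chromosome 2, 156145682), and A177V of Pgc, the protease precursor progastricsin (chromosome 17, 47730672), were listed in 2 each, with medians of 0.44 and 0.412.

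The tissue of the sample was compared at every site listed in at least 2 leukemias, marked ones included, which were 111 sites. No member site was listed more often in thymus or in bone marrow after adjustment, with 0 of 111 sites called (0%) by the Fisher exact test with Benjamini-Hochberg adjustment. The 40 member sites listed in exactly 2 leukemias could not be called, because their smallest exact p in this test was 0.11. At an unadjusted p under 0.05 there were 2 sites (1.8%), both members. An intronic site of 2610005L07Rik (chromosome 8, 20424213) was listed in 4 bone marrow and 0 thymus leukemias (exact p = 0.0063, adjusted p = 0.7). T598T of Vmn2r103, a vomeronasal receptor (chromosome 17, 19811759), was listed in 3 bone marrow and 0 thymus leukemias (exact p = 0.0294, adjusted p = 1). All carriers of both sites belonged to the NN series.

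The mouse name series divided carriers at more sites. Of the 111 sites, 6 were called (5.41%) by the Fisher exact test, and 5 of the 104 member sites were among them. The 40 member sites listed in exactly 2 leukemias could not be called here either, with a smallest exact p of 0.206. Nor could sites listed in exactly 3, with a smallest exact p of 0.0824. V148M of Gcgr, the glucagon receptor (chromosome 11, 120536507), was listed in 7 plain and 0 NN leukemias (exact p = 0.00041, adjusted p = 0.0152). Its fraction was 0.541 in M18, 0.5 in M19, 0.514 in M20, 0.596 in M21, 0.521 in M22, 0.358 in M23 and 0.494 in M24, so that M31 was the only plain leukemia without it. A313T of Ankrd13a, a ubiquitin-binding protein (chromosome 5, 114797906), showed the opposite, with 8 NN and 0 plain leukemias (exact p = 0.00041, adjusted p = 0.0152). Its fraction ran from 0.296 in M57 over a median of 0.478 to 0.643 in M56, and M61 was the NN leukemia without it.

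The other 3 member sites passed with an adjusted p of 0.0419 in the same exact test. The splice acceptor variant of Abca12, a lipid transporter of the skin (chromosome 1, 71267608), was listed in 6 plain and 0 NN leukemias, at 0.524 in M18, 0.5 in M21, 0.486 in M22, 0.412 in M23, 0.579 in M24 and 0.273 in M31. The synonymous variant P61P of Ankrd33b (chromosome 15, 31367210) had 7 NN carriers and 0 plain ones, and lay at 1 in M60 and otherwise at 0.333 to 0.5, on 10 to 22 reads. The intergenic site between Mup17 and Gm2083 (chromosome 4, 61610717) had 7 NN carriers and 0 plain ones, and its fractions were low, from 0.024 to 0.053. These calls depend on the set of leukemias and on the adjustment. Without M58 the count of called sites fell to 0 and without M31 to 3, each over the sites still listed in at least 2 leukemias. With adjustment over all 2101 sites it fell to 0, where the smallest adjusted p of the Fisher exact test was 0.288. Most of those sites were listed in 1 leukemia and could not be called.

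Over all members, 34 sites were listed in the plain series only, 21 in the NN series only and 49 in both. Members listed in exactly 2 leukemias numbered 40, and 27 of the 34 plain-only sites had a median fraction below 0.10. Of the upper sites, 29 were listed in both, 10 in NN only and 5 in plain only. Upper sites listed per leukemia were 23.3 ± 4.3 (SD, n = 9) in NN and 19.9 ± 2.1 (SD, n = 8) in plain, with overlapping ranges of 19 to 33 and 16 to 23 (exact permutation p = 0.0438, adjusted p = 0.263).

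The number of shared sites did not differ between tissues beyond the spread between leukemias. It was 36.1 ± 7.45 (SD, n = 11) in thymus and 37.3 ± 9.31 (SD, n = 6) in bone marrow, a difference of -1.24 sites (exact two-sided permutation test over 12376 assignments, p = 0.784). The direction differed by series. Thymus leukemias of the NN series listed 34.4 ± 2.51 sites (SD, n = 5), fewer than the 41 ± 4.9 sites (SD, n = 4) of its bone marrow leukemias (exact permutation p = 0.0397, adjusted p = 0.263). Thymus leukemias of the plain series listed 37.5 ± 10 sites (SD, n = 6), against 30 ± 14.1 sites (SD, n = 2) in its bone marrow (exact permutation p = 0.429). The test of the difference between the series, with tissues permuted within each, gave an exact permutation p of 0.148. Across leukemias the number ran from 20 in M23 to 47 in M18, M19 and M58. Without M58 the tissue difference was 0.69 sites.

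**Figure D3:**
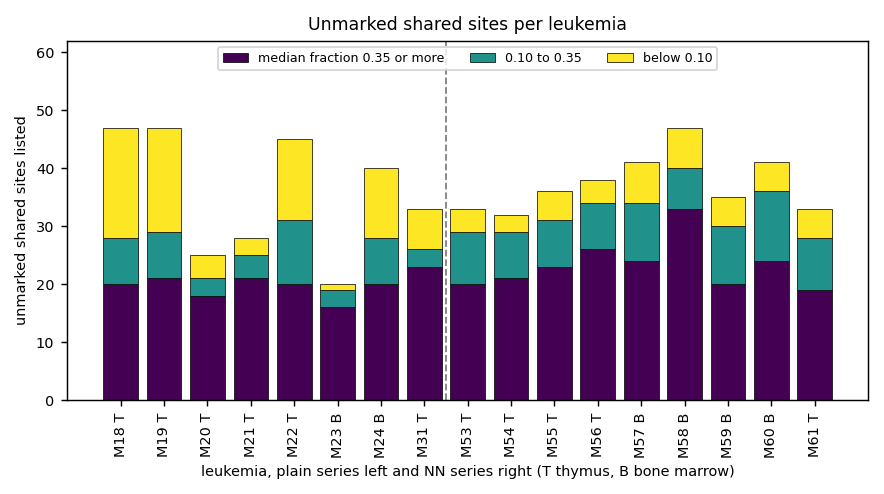
Bars give the number of unmarked shared sites listed in each leukemia, divided by the median allele fraction of the site, with the plain series left of the dashed line. The upper class (0.35 or more) runs from 16 in M23 to 33 in M58, and the lowest class (below 0.10) is tallest in M18, M19, M22 and M24. No NN leukemia has more than 7 such sites.

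Carrier sets of neighbouring sites were compared to see which sites were listed together. Within 10 bases there were 10 pairs of sites, and 9 of them had identical carriers. In these 9 pairs the fractions in the same leukemia differed by 0.006 at most, in Lingo1. They lay in Phf23, Ddr1, Ppm1g, Arap1, Tufm, Arhgap20, Lingo1, an unplaced scaffold and the mitochondrial genome. The Nsd1 pair was the exception.

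Pairs at larger distances were counted in the same way, with no test. Over 10 bases and up to 1 Mb apart there were 19 pairs of member sites, 0 of them with identical carriers, and their carrier sets had a median Jaccard index (leukemias listing both sites over leukemias listing either) of 0.222. From 1 to 10 Mb there were 52 pairs with a median of 0.185, 1 of them identical, and on different chromosomes 5066 pairs with a median of 0.154, 41 of them identical. Among upper sites, taken once per location, 2 pairs lay up to 1 Mb apart, with a median of 0.0833. Another 13 pairs lay 1 to 10 Mb apart, with a median of 0.273. The median over 847 pairs on different chromosomes was 0.267. Pairs share sites and leukemias. The 1 pair of upper sites with identical carriers was A356V of Dpagt1, the enzyme that starts N-linked glycosylation (chromosome 9, 44332871), and T885T of Zc3h12c, a CCCH zinc finger protein (chromosome 9, 52115463), 7.78 Mb apart and listed in the same 11 leukemias. Both were near 1 in M54 alone, at 0.966 and 1, and between 0.358 and 0.611 in the other 10.

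K68K of Cst12, a cystatin (chromosome 2, 148789564), and the Procr insertion of a single base in an intron of the protein C receptor gene (chromosome 2, 155753325) lay 6.96 Mb apart. They were listed in 10 leukemias each and shared 9. In M53 both were at 1, and in M54 they were at 0.99 and 1. Over the leukemias listing both, the median difference was 0.018. It was largest in M20, with Cst12 at 0.238 and Procr at 0.5. M59 listed Cst12 only, at 0.037 (7 of 193 reads), and M22 listed Procr only, at 0.463. The Romo1 site, 0.392 Mb from Procr, had carriers disjoint from it.

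In all, 5 groups of at least 3 sites with gaps of at most 1 Mb were found. Besides Phf23, they were 4 sites in 133 kb around A530032D15Rik and C130026I21Rik on chromosome 1, 3 sites in 69.2 kb around LOC100041034 on an unplaced scaffold of chromosome 1, Arap1 and Nup98 on chromosome 7 (3 sites in 770 kb), and Arhgap20 and Zc3h12c on chromosome 9 (3 sites in 275 kb). In the last 2, a low pair stood beside an upper site.

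The leukemias were compared in pairs by the upper sites they listed. M53 and M54 had the highest Jaccard index, 0.864, with 19 sites in both of 22 in either. M56 (thymus) and M60 (bone marrow) followed with 22 of 28 (0.786), and M57 and M58 shared 23 of 34 (0.676). M23 and M61 had the lowest, with 5 of 30 (0.167). The median index was 0.516 over 36 pairs within the NN series, 0.463 over 28 pairs within the plain series and 0.375 over 72 pairs between them. By tissue it was 0.407 within thymus, 0.455 within bone marrow and 0.45 between them.

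Some leukemias departed from the 2 modes at many sites. M31 had a median of 0.321 over its 23 upper calls, while the other leukemias ran from 0.439 to 0.565. Of its upper calls, 10 lay below 0.30, among them Zcchc4 A170S at 0.296 (43 of 135 reads, exact interval from 24.1% to 40.4%) and Perp. M31 also had 245 private calls with a median of 0.265. In the other leukemias the private median ran from 0.028 in M18 to 0.15 in M54.

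M58 listed the most upper sites, 33. At 8 sites M58 lay below 0.30 while M57, the mouse with the next lower number, lay at 0.35 or more. Ptch1 V935V was 0.946 in M57 and 0.208 in M58, and Pram1 P308S was 0.951 and 0.269. Ddx42 D78E was 0.517 and 0.133, and Scube3 R458Q 0.466 and 0.146. Prl2c1 Q2* was 0.39 and 0.053, and Vmn2r103 T598T 0.468 and 0.098. R484H of Fgr, a Src family kinase (chromosome 4, 133000240), and W176* of Mybl2, a transcription factor of the cell cycle (chromosome 2, 163068182), were listed in these 2 leukemias only. Fgr was 0.386 in M57 and 0.152 in M58, and Mybl2 was 0.356 and 0.086.

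At 2 sites M57 lay below 0.30 and M58 at 0.35 or more. Cenpo was 0.052 in M57 (5 of 85 reads) and 0.778 in M58, and Ankrd13a A313T was 0.296 and 0.375. Of 6 sites near 1 in M57, 5 were below 0.65 in M58 and 1, 4931431F19Rik, was near 1 in both. At 9 sites both leukemias lay near 0.5. In M59, Cst12 (0.037) and Mina (0.077, 7 of 91 reads) were likewise far below their levels in other carriers. Vmn2r103 was at 0.02 in M59 (8 of 449 reads), beside 0.098 in M58 and 0.468 in M57, its only other carriers.

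**Figure D4:**
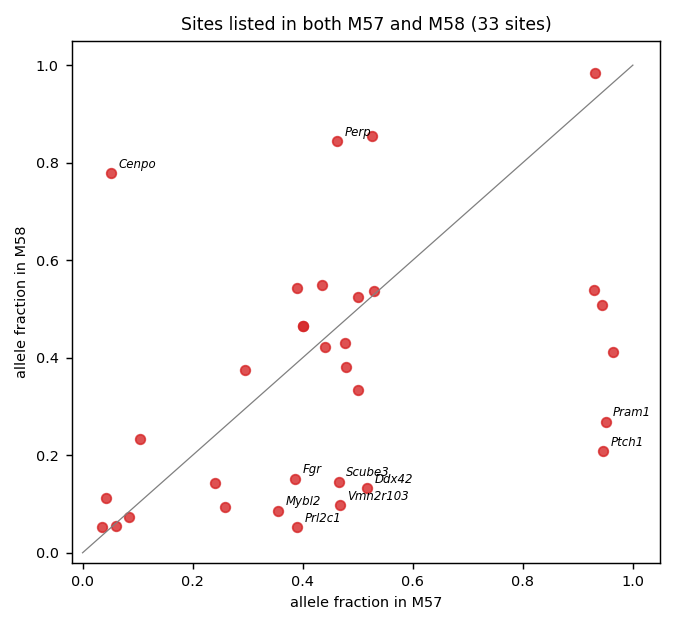
Each point is 1 of the 33 sites listed in both M57 and M58, with the allele fraction in M57 on the x axis and in M58 on the y axis, and the line marks equal fractions. The 8 labelled sites at the lower right and lower middle are below 0.30 in M58 and at 0.35 or more in M57, and Cenpo lies at the upper left.

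Recurrent sites of low fraction had another pattern. The 39 sites with a median below 0.10 were listed in few leukemias, 28 of them in exactly 2, while 5 of the 44 upper sites were listed in exactly 2. They comprised 18 insertions, 2 deletions and 19 single-base changes, and 22 altered a protein, 12 by a frameshift. These consequences are those of each call taken alone. The Arap1 frameshifts E883fs and G884fs were insertions of 2 and 7 bases, 1 base apart, with the same fractions in M19 and M24. Whether they are 1 allele was not tested. Of the 39, 27 were listed in plain leukemias only and 5 in NN leukemias only. The 27 plain-only sites included 17 of the 18 insertions. All carriers were among M18, M19, M22 and M24 at 21 of the 27 sites, and 9 sites were listed in exactly M18 and M19. These counts take neighbouring calls as separate sites, such as the pairs in Tufm and the mitochondrial genome, both listed in M18 and M19. With sites within 10 bases taken as 1 location, 32 of the 39 low sites and 95 of all 104 sites were left.

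Reads behind these calls were few. The 56 calls at the plain-only low sites had a median of 4 alternative reads, and 47 had alternative reads in both read orientations. The Samd5 frameshift insertion shown above was carried by 8 to 11 reads, at fractions of 0.046 in M18 and 0.075 in M19. The insertion in Pira6 was at 0.028 in M22 and 0.046 in M24, and that in Ncaph, a condensin subunit, at 0.049 in M18 and 0.053 in M22. The insertion in Lingo1 was carried by 4 reads in M19 and 4 in M22, 1 base beside Y517C in the same leukemias. Other frameshift insertions lay in Srcap, a chromatin remodelling ATPase (R3110fs, M18 and M24), Scrib, a polarity protein (K1106fs, M18 and M19), and Dido1 (A2055fs, M18 and M19).

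The number of low shared sites, the number of private calls and the depth moved together in part. M18, M19, M22 and M24 listed 12 to 19 low shared sites and 96 to 230 private calls, at a median depth of 71 to 146 reads over their shared calls. The other 13 leukemias listed 1 to 7 low shared sites, at depths of 45 to 110 reads. M31 had 245 private calls and 7 low shared sites. Private unmarked insertions below 0.10 numbered 186, and 151 of them were in M18, M19, M22 and M24. Private unmarked calls of any kind below 0.10 numbered 1024, and these too were mostly there, with 221 in M18, 197 in M19, 191 in M22 and 87 in M24. M18, M19, M22 and M24 were set apart with their many low calls known. Their share of the low calls is therefore partly built in. The part of depth in these counts was not tested.

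**Figure D5:**
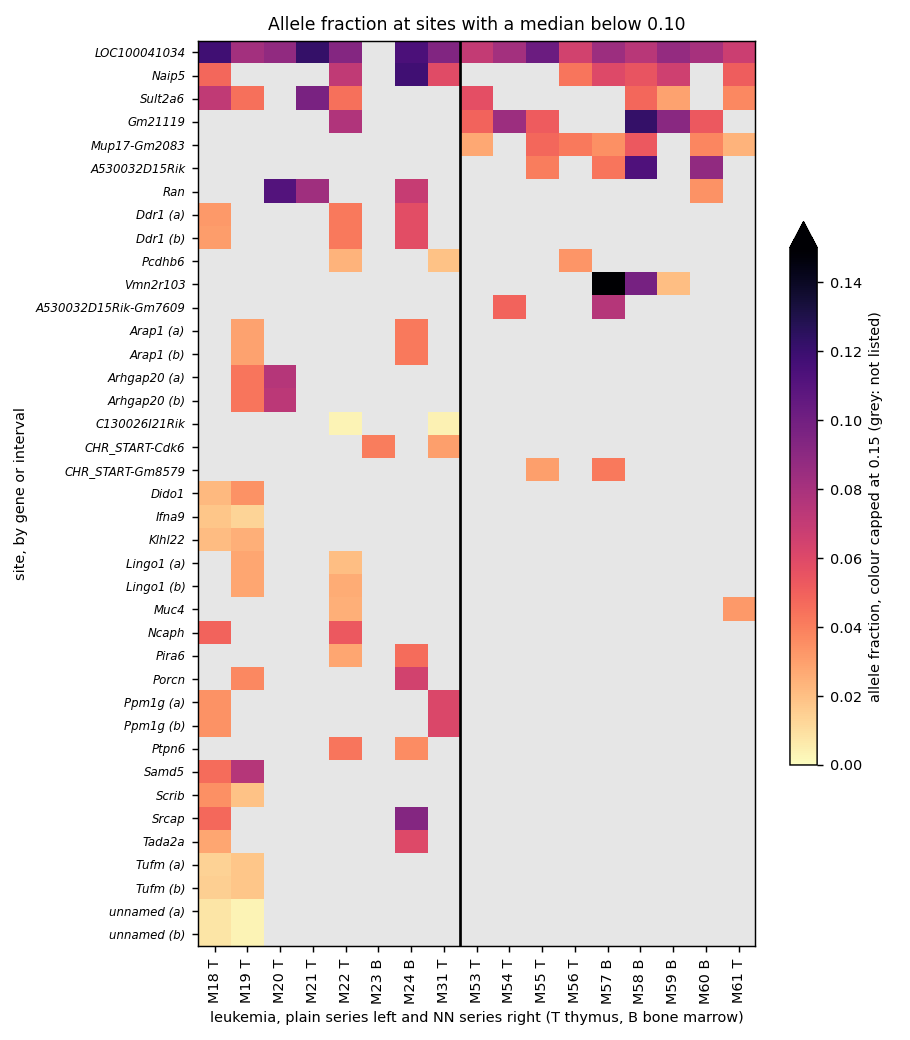
Rows are the 39 sites with a median allele fraction below 0.10, columns are the 17 leukemias with the plain series left of the black line, and colour is the allele fraction, capped at 0.15, with grey where a site was not listed. The lower rows, mostly 2 leukemias each, are filled mostly in M18, M19, M22 and M24, and 21 of the 39 rows are filled in these only. The top row is filled in 16 leukemias.

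The low sites listed in most leukemias were mostly single-base changes, and 5 of the 8 were listed in both series. A noncoding change of LOC100041034 on an unplaced scaffold of chromosome 1 was listed in 16 leukemias, at 0.065 to 0.122 with a median of 0.0855. V1120V of Naip5, a sensor of bacterial flagellin (chromosome 13, 100219746), was listed in 9 leukemias with a median of 0.059. A191T of Sult2a6, a sulfotransferase (chromosome 7, 14226036), was listed in 8 with a median of 0.0465. An intronic change of Gm21119 (chromosome 8, 19905462) was listed in 7 with a median of 0.077, and the site between Mup17 and Gm2083 in 7 with a median of 0.038. K142fs of Ran, the GTPase of nuclear transport (chromosome 5, 129022189), a deletion of a single base, was listed in 4 with fractions up to 0.111. A deletion upstream of A530032D15Rik (chromosome 1, 85113667) was listed in 4 NN leukemias with a median of 0.0655. Vmn2r103 T598T, in 3 leukemias, had the widest range of the low sites, from 0.02 to 0.468.

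The 21 sites between 0.10 and 0.35 held few fractions near either mode. LOC101056073 (chromosome 4, 145513052), an intronic change, was listed in all 17 leukemias at 0.133 to 0.4 with a median of 0.226. C130026I21Rik (chromosome 1, 85245760) was listed in 11 at 0.119 to 0.24. Of the 21 sites, 5 lay on unplaced scaffolds, as did 1 of the 39 low sites and none of the 44 upper sites. On these scaffolds, 2 neighbouring changes (83251 and 83252) were listed together in 10 leukemias with medians of 0.124 or 0.125, and a site between LOC664787 and Csprs in 10 with a median of 0.155. F88C of Eef2, the translocase of protein synthesis (chromosome 10, 81178097), was listed in 7 at 0.121 to 0.277, and 1 of 89 reads of the tail carried it. The RefSeq gene table (GRCm38.p6) lists an Eef2 pseudogene, so reads at Eef2 are uncertain as to their copy, which was not tested.

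At 1 site the caller's fraction and the reads disagreed. P228T of C130026I21Rik (chromosome 1, 85247131) had a fraction of 0.00315 in M22 and 0.00364 in M31. The reads were 75 of 511 and 57 of 435, and 23 reads of the tail carried it.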

How the data were processed

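Per the labels' protocols, exomes of 17 leukemias were captured with a SureSelectXT mouse kit. Tools named in the submitters' processing notes, without roles, are BWA 0.7.17, bcl2fastq 2.17.1.14 and GATK, and the builds are GRCm38 and mm10. The deposited table lists calls against 1 wild-type tail. Reference and alternative reads and depth are deposited counts, the allele fraction is the deposited fraction of the caller, and the deposited score is its log odds of a variant. Another 24 columns of per-sample values were not used. Some rows may not be analysed here, and a site that is not listed in a leukemia may still be present in it.

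A member had at least 2 unmarked calls. The members and lists were chosen with earlier results of these data known. Named sites were those in at least 10 leukemias, upper protein-altering sites, sites past the Fisher tests, the 8 low sites in most leukemias, groups of 3 or more neighbours and sites in listed genes. A site that met this rule is counted but not reported here by name. Some others were chosen after their values were seen: the Phldb1 site, the sites with low calls in M57, M58 or M59, and the insertions, deletions and Eef2 site.

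Python 3.11.15, pandas 2.3.3, numpy 2.4.6 and scipy 1.17.1 were used for exact permutation, sign-flip permutation and Fisher exact tests, with Benjamini-Hochberg adjustment at 0.05, and checked on simulated data. Of 81 member gene symbols, 77 were in the RefSeq gene table and 2 more matched as synonyms. No member lay in a RefSeq promoter window. Tests of allele fraction per site and of calls near 1 were added after seeing the data. Mice are separate, but their relatedness was not given.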

Additional observations from a re-analysis of the deposited data

Results flagged for a closer look

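In 72 groups of 4 to 10 values, 14 had a highest or lowest value that stood apart by Dixon's test. Its limits give about 1 in 20 by chance for normally distributed values only. Allele fractions at the upper sites fell into separate modes, so that rate does not apply to them, and no excess was tested. Among the NN leukemias M58 listed 33 upper sites. Among the plain leukemias M31 had a median fraction of 0.319 over its upper calls below 0.75.

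At single sites, M31 stood apart among thymus carriers at Abca12, with a fraction of 0.273. M61 stood apart among thymus carriers at P2rx1 (0.966), Ddx42 (0.969) and Pram1 (0.936). M57 did among bone marrow carriers at P2rx1 (0.944), and M55 among thymus carriers at the site between 2410141K09Rik and Uqcrb (1). At Mina, M18 was highest in thymus (0.701) and M59 lowest in bone marrow (0.077). M59 was also lowest in bone marrow at Cst12 (0.037). M20 was highest in thymus at Syne4 (0.959), and M54 at Zc3h12c (1). At 4931431F19Rik, M23 was lowest in bone marrow (0.471), and it was the only plain leukemia among those 5 carriers.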

How the results depend on the processing

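Alternatives asked for a fraction of at least 0.10, at least 20 reads, neighbours within 10 bases taken as 1 location, at least 3 leukemias, reads over depth, or left out leukemias. With a fraction of at least 0.10, 62 shared sites were left and 0 had a median below 0.10, by construction. In at least 3 leukemias there were 64, 11 of them below 0.10. Without M18, M19, M22 and M24, 13 sites lay below 0.10. The series difference in carriers, 6 sites, was 0 when adjusted over every site, 3 without M31 and 0 without M58, with the cause not tested. Thymus minus bone marrow in shared sites, -1.24, ran from -4.71 to 0.69 with single leukemias left out (exact permutation p from 0.216 to 1). It was 0.69 without M58, -6.6 within NN (the only setting past 0.05), 7.5 within plain and 1.65 at sites below 0.10, with the cause not tested. The tissue difference in calls near 1, 1.53 points, was -0.43 without M58. The fraction difference between shared and private calls ran from 0.283 to 0.312 with single leukemias left out. The other 93 values kept their direction and side of the threshold or, for counts, stayed within 1.5 times. Of 147 alternatives for 52 single sites, 3 moved the median by more than its SD, among them C130026I21Rik from 0.16 to 0.233 with reads over depth. With at least 20 reads, 101 of 104 sites were left and 39 lay below 0.10. No paired analysis was possible between thymus and bone marrow because the labels give no replicate numbers and each mouse gave 1 tissue. The comparison of shared with private calls was paired within each leukemia.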
